A study of Rattus norvegicus with 8 samples.

Results

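The genes described here are 10 members of the Hippo pathway, chosen by symbol: the transcriptional cofactors Yap1 and Wwtr1, the transcription factors Tead1, Tead2, Tead3 and Tead4, the kinases Lats1 and Lats2, and the angiomotins Amotl1 and Amotl2. All 10 were found among the 32623 genes of the count files, and all 10 were among the 11682 genes with a mean count of at least 100. They were measured by RNA sequencing in the outflow vein of Sprague Dawley rats of both sexes, 21 days after a femoral-epigastric arteriovenous fistula (AVF), a surgical join of an artery to a vein, had been created. In 4 rats (3 females and 1 male) the vein was wrapped in a bilayer PLA and PLGA nanofiber scaffold loaded with β-aminopropionitrile (BAPN), an inhibitor of lysyl oxidases, the enzymes that join collagen and elastin fibers. In the other 4 (2 females and 2 males) the same kind of scaffold carried no drug (vehicle), so every rat of both groups had a fistula and a scaffold, and no vein without either was analysed. The age of the rats was not given in the sources used here, and each rat gave 1 library from a whole piece of vein at 1 time point.

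In the Hippo pathway, the kinases Stk3 and Stk4 with the scaffold Sav1 activate Lats1 and Lats2, which act with Mob1 proteins to phosphorylate YAP (Yap1) and TAZ (Wwtr1). Phosphorylated YAP and TAZ are held in the cytoplasm and degraded, whereas the unphosphorylated proteins enter the nucleus and bind TEAD factors, which bring them to genes such as Ccn1 and Ccn2. Angiomotins bind YAP and TAZ at cell junctions, and in vascular cells a stiff matrix is known to favor nuclear YAP and TAZ. Transcript levels do not measure phosphorylation or location of these proteins.

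BAPN libraries held 45039451 to 52241007 counts and vehicle libraries 19548203 to 22442050, so every BAPN library was deeper than every vehicle library. No library repeated another of its group within counting noise. Levels are given as CPM (counts scaled to a common library size) after TMM scaling, and a gene was called at an edgeR false discovery rate (FDR, the Benjamini-Hochberg adjusted p) below 0.05 over all 11682 genes. At this threshold 16.8% of all tested genes were called, 9.25% lower and 7.5% higher with BAPN. Calls that were lower made up 55.2% of all calls, and 69.7% when libraries were scaled by their totals alone. Endothelial, smooth muscle and fibroblast markers were present in every library, as a vein wall would hold. Because the samples are whole tissue, fewer cells of a type and less RNA per cell cannot be told apart.

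Transcripts of the pathway's cofactors, of both Lats kinases and of both angiomotins fell with BAPN. Of the 10 genes, 6 were called (Yap1, Wwtr1, Lats1, Lats2, Amotl1 and Amotl2) and all 6 were lower, against the 9.25% of all tested genes called lower. The count was 0 when the library Vehicle 1 was left out and 0 in females alone. It was 0 with a block for replicate number and 1 with sex as a covariate. All 10 log2 fold changes stayed below 0 in these fits except that of Tead4 in females. In the same order, 247, 54, 356 and 541 of all 11682 tested genes were called lower, against 1081 in the main fit. By DESeq2, 8 of the 10 were called, against 27.4% of all tested genes, the further genes being Tead1 and Tead3. In 7 of the 10 every BAPN rat lay below every vehicle rat, against 11.9% of all tested genes. All 10 had a fold change below 0, with a median log2 fold change of -0.91 against 0.02 over all tested genes, of which 48.4% were below 0. From these same libraries the study reported both Yap1 and Hippo signaling as lower with BAPN, so these counts are not independent evidence.

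**Figure D1:**
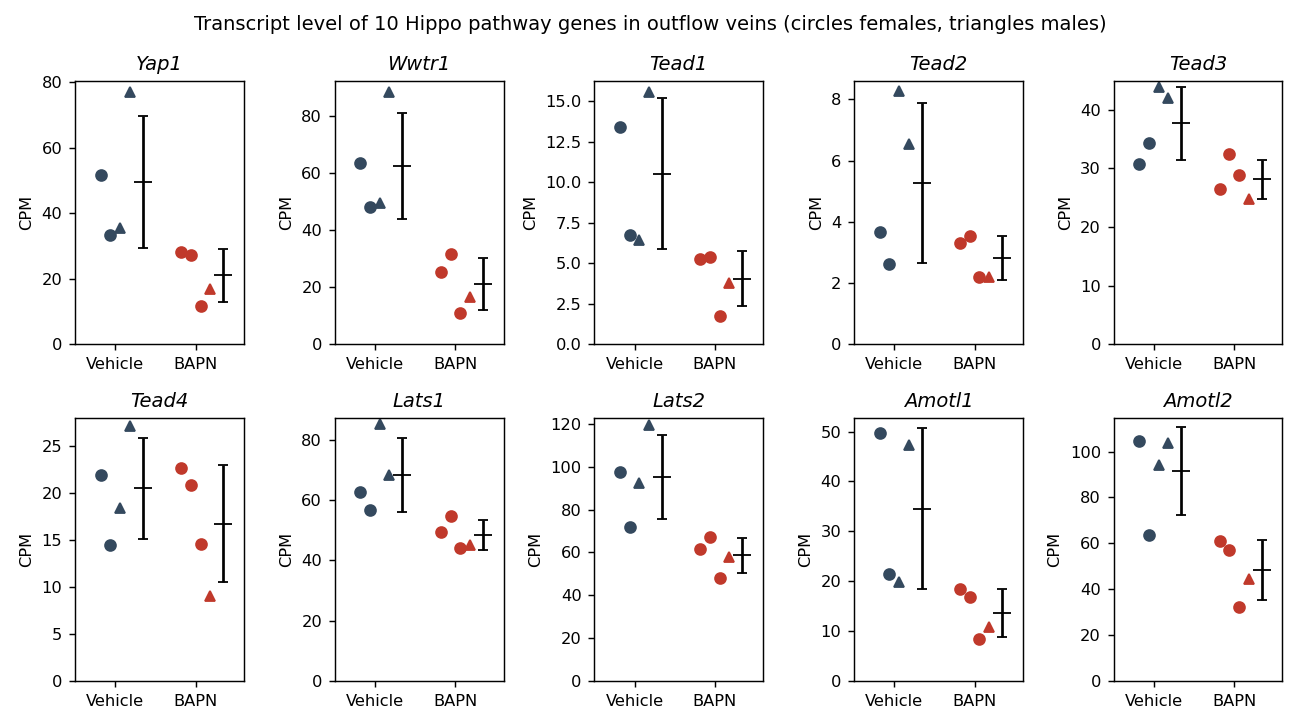
Level of each of the 10 genes (vertical axis, TMM-scaled CPM, from 0) in each of the 4 vehicle and 4 BAPN rats; circles are females, triangles are males, and the bar gives mean and SD. The 4 BAPN points lie below all 4 vehicle points in 7 genes and overlap them in Tead2, Tead3 and Tead4.

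YAP and TAZ are the paired cofactors through which the pathway acts on transcription. Yap1 (ENSRNOG00000005933) measured 28.3, 27.3, 11.7 and 16.9 CPM in BAPN rats 1 to 4 and 51.8, 33.5, 35.6 and 77.2 CPM in vehicle rats 1 to 4. The groups did not overlap, BAPN 3 was the lowest and Vehicle 4 the highest. Mean Yap1 in BAPN rats, 21.0 ± 8.07 CPM (SD, n = 4), was 2.35-fold lower than in vehicle rats, 49.5 ± 20.2 CPM (SD, n = 4). Its log2 fold change was -1.23 (limma SE 0.34, edgeR FDR = 0.0393), and an exact two-sided permutation test gave p = 0.0286, the smallest that 4 against 4 rats allow. Leaving out BAPN 2, BAPN 3, BAPN 4, Vehicle 1, Vehicle 3 or Vehicle 4 in turn ended the call of Yap1, with an edgeR FDR between 0.0508 and 0.0920.

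Wwtr1 (ENSRNOG00000016617), which encodes TAZ, had the log2 fold change furthest below 0 of the 10 genes. It measured 25.4, 31.6, 11.0 and 16.4 CPM in BAPN rats 1 to 4 and 63.6, 48.1, 49.7 and 88.5 CPM in vehicle rats 1 to 4. The groups did not overlap, and the lowest and highest rats were the same as for Yap1. Mean Wwtr1 in BAPN rats, 21.1 ± 9.18 CPM (SD, n = 4), was 2.96-fold lower than in vehicle rats, 62.5 ± 18.7 CPM (SD, n = 4). The log2 fold change was -1.57 (limma SE 0.32, edgeR FDR = 0.0190), lower than that of all but 1.2% of tested genes. Wwtr1 was also the member still called with sex as a covariate, and it missed the threshold when Vehicle 1 was left out (edgeR FDR = 0.0534).

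Whether the paired genes changed by different amounts was tested as a ratio within each library. The log2 ratio of Yap1 to Wwtr1 was 0.02 ± 0.16 (SD, n = 4) with BAPN and -0.37 ± 0.15 (SD, n = 4) with vehicle. The difference of 0.39 had an exact permutation p of 0.0571 (adjusted p = 0.171 over the 3 ratios examined). The smallest exact p that 4 against 4 rats allow is 0.0286. With the other ratios at 0.286, even that p would not give an adjusted p below 0.05. The test therefore cannot decide whether Yap1 and Wwtr1 changed by different amounts. Lats1 over Lats2 differed by 0.20 and Amotl1 over Amotl2 by -0.36, both with an exact permutation p of 0.286 and an adjusted p of 0.286.

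The 4 TEAD factors bind DNA and carry YAP and TAZ to their target genes, and none was called by edgeR, although 3 had an unadjusted p below 0.05 (35.8% of all tested genes). Tead1 (ENSRNOG00000015488) measured 5.27, 5.38, 1.75 and 3.80 CPM in BAPN rats 1 to 4 and 13.4, 6.72, 6.44 and 15.6 CPM in vehicle rats 1 to 4. All BAPN rats were below all vehicle rats, although Vehicle 2 and Vehicle 3 lay close to BAPN 1 and BAPN 2. Mean Tead1 was 4.05 ± 1.69 CPM (SD, n = 4) against 10.5 ± 4.66 CPM (SD, n = 4), with a log2 fold change of -1.38, the second furthest below 0 of the 10 (limma SE 0.43, edgeR FDR = 0.0514, DESeq2 FDR = 0.00747). Tead1 rested on 76 to 326 reads a library, fewer than any other member but Tead2. It was called by edgeR when Vehicle 2 was left out (FDR = 0.0408).

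Tead2 (ENSRNOG00000020695) measured 3.32, 3.55, 2.19 and 2.19 CPM in BAPN rats 1 to 4 and 3.65, 2.62, 8.29 and 6.54 CPM in vehicle rats 1 to 4. Both vehicle males (Vehicle 3 and Vehicle 4) were high and both vehicle females lay near the BAPN rats. The log2 fold change was -0.91 (edgeR FDR = 0.124, exact permutation p = 0.114), on 53 to 197 reads a library. Tead3 (ENSRNOG00000000506) measured 26.5, 32.4, 28.9 and 24.8 CPM in BAPN rats 1 to 4 and 30.7, 34.3, 43.9 and 42.0 CPM in vehicle rats 1 to 4. Here too the vehicle males were highest, and BAPN 2 lay above Vehicle 1. Its log2 fold change was -0.42 (limma SE 0.15, edgeR FDR = 0.0736, DESeq2 FDR = 0.0362). Tead4 (ENSRNOG00000005608) ranged from 9.02 to 22.6 CPM with BAPN and from 14.5 to 27.1 CPM with vehicle, so the groups overlapped through most of their range. With a log2 fold change of -0.29, Tead4 was the member nearest to 0, and its limma 95% interval ran from -1.05 to 0.38 (edgeR FDR = 0.501).

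The Lats kinases restrain YAP and TAZ, and both transcripts fell, with log2 fold changes nearer to 0 than those of the cofactors, a difference that was not tested. Lats1 (ENSRNOG00000014916) measured 49.5, 54.9, 44.1 and 45.0 CPM in BAPN rats 1 to 4 and 62.8, 56.6, 85.3 and 68.5 CPM in vehicle rats 1 to 4. The groups did not overlap, but BAPN 2 and Vehicle 2 were close. The log2 fold change of Lats1 was -0.50 (limma SE 0.14, edgeR FDR = 0.0421), and leaving out any library but Vehicle 2 ended its call (edgeR FDR 0.0504 to 0.106). Lats1 was not called without a filter on low counts (edgeR FDR = 0.0686) or with the edgeR filter filterByExpr (FDR = 0.0518) either, which left 5 of the 10 called. Lats2 (ENSRNOG00000056343), which is itself a YAP and TEAD target, measured 61.8, 67.2, 47.9 and 57.6 CPM in BAPN rats 1 to 4 and 97.5, 71.8, 92.6 and 119 CPM in vehicle rats 1 to 4. No BAPN rat reached a vehicle rat, and BAPN 3 was again lowest and Vehicle 4 highest. Its log2 fold change was -0.70 (limma SE 0.17, edgeR FDR = 0.0251), and without BAPN 3, BAPN 4, Vehicle 1 or Vehicle 4 the FDR was between 0.0505 and 0.0671.

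The angiomotins hold YAP and TAZ at junctions and the actin cytoskeleton. Amotl1 (ENSRNOG00000008990) measured 18.4, 16.7, 8.44 and 10.7 CPM in BAPN rats 1 to 4 and 49.7, 21.4, 19.8 and 47.2 CPM in vehicle rats 1 to 4. The groups did not overlap, with Vehicle 1 and Vehicle 4 far above Vehicle 2 and Vehicle 3. Its log2 fold change was -1.34 (limma SE 0.37, edgeR FDR = 0.0379), and without BAPN 2, BAPN 3, BAPN 4, Vehicle 1 or Vehicle 4 the FDR was between 0.0553 and 0.102. Amotl2 (ENSRNOG00000008487), another known YAP target, measured 60.8, 57.1, 32.1 and 44.2 CPM in BAPN rats 1 to 4 and 105, 63.5, 94.1 and 104 CPM in vehicle rats 1 to 4. Vehicle 2 stood just above BAPN 1, and the other vehicle rats stood well above. Its log2 fold change was -0.91 (limma SE 0.23, edgeR FDR = 0.0282), and without BAPN 3, BAPN 4, Vehicle 1, Vehicle 3 or Vehicle 4 the FDR was between 0.0576 and 0.0771. Leaving out Vehicle 1 took the number of the 10 genes called from 6 to 0, although all 10 stayed below 0 and 9 kept an unadjusted edgeR p below 0.05 (28.6% of all tested genes). Without BAPN 3, BAPN 4 or Vehicle 4 the number called was 1, and without BAPN 2 or Vehicle 3 it was 3. Calls also fell over all 11682 tested genes, from 1957 to 397 without Vehicle 1. Those calls numbered 745, 856 and 963 without BAPN 3, BAPN 4 and Vehicle 4, and 1224 and 1210 without BAPN 2 and Vehicle 3. With libraries thinned to equal totals 6 were called, Tead1 in place of Lats1.

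**Figure D2:**
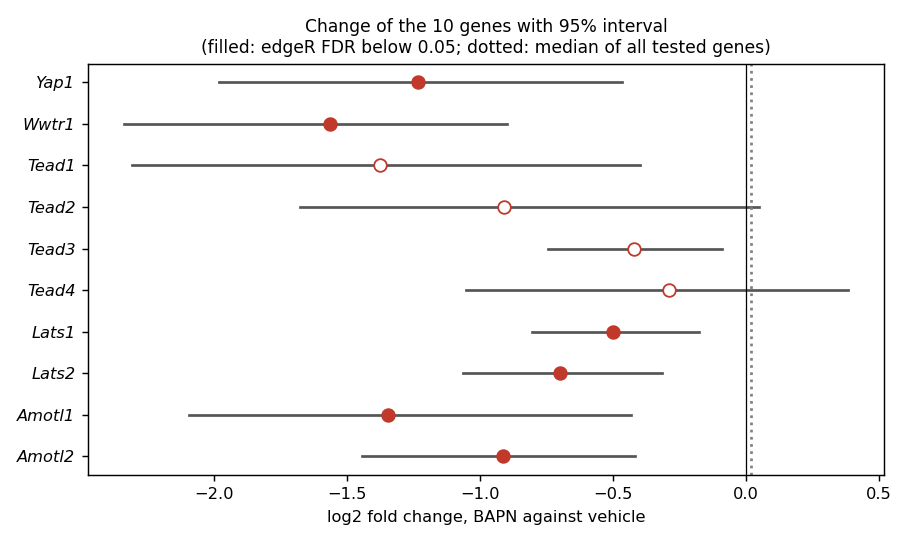
Log2 fold change of the 10 genes, BAPN against vehicle (horizontal axis), as fitted by edgeR (points) with the limma 95% interval (lines). Filled points are the 6 genes with an FDR below 0.05, and the dotted line is the median of all tested genes at 0.02.

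Sex was unequal between the groups, so the genes were also read within each sex. Among females, with 3 BAPN and 2 vehicle rats, 7 of the 10 genes were lower without overlap, against 22.1% of all tested genes, a design in which an exact permutation test cannot go below 0.1. The single BAPN male was below both vehicle males in 10 of 10 genes, against 38.3% of all tested genes. With sex as a covariate edgeR called 1 of the 10 (Wwtr1), lower, against 4.63% of all tested genes called lower in that fit, 8 had an unadjusted p below 0.05 (30.4% of all tested genes in that fit), and all 10 stayed below 0. In the females alone edgeR called 0 of the 10, and 89 of all 11682 tested genes. Of the 10, 5 had an unadjusted p below 0.05 in that fit (24.5% of all tested genes). The interaction of sex and treatment was called in 0 of 11682 genes by edgeR (1442 at an unadjusted p below 0.05), in a fit where the single BAPN male is assumed to vary like the other rats. Of the 10 genes, Tead2, Tead3 and Tead4 were the 3 with an unadjusted interaction p below 0.05, and their edgeR FDR were 0.342, 0.379 and 0.336. The mean of the vehicle males was above that of the vehicle females in 9 of the 10 genes, for Tead2 at 7.42 against 3.14 CPM, the exception being Amotl1.

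After the mean of its group was subtracted from each log2 level, most of the 10 genes varied together among the 8 rats, to different degrees. Yap1 went with Wwtr1 (Pearson r = 0.96), Tead1 (0.95), Amotl1 (0.91), Lats2 (0.89) and Amotl2 (0.86). Tead2 went with Lats1 (r = 0.94), and Yap1 varied little with Lats1 (0.30) or Tead3 (0.15). Tead4 (0.76 with Yap1) lay between, and Tead2 was also close to Tead3 (0.77) and Lats2 (0.70). Sex was not removed from these levels, and the mean of the vehicle males was above that of the vehicle females in 9 of the 10 genes. Many other genes were as close to Yap1, since among all tested genes Wwtr1 ranked 54, Tead1 89, Amotl1 272, Lats2 400 and Amotl2 609 in likeness to it. Of the 45 pairs, 15 had r above 0.8, 2 were below 0, and the median was 0.68. These values describe 8 rats, and rats share library, scaling and cell makeup across all genes. BAPN 3 held the lowest level of 8 of the 10 genes, with Vehicle 4 holding the highest of 5. Among all tested genes the 5 most like Yap1 by this measure were Tanc1 (r = 0.994), Foxn3 (0.993), Yes1 (0.993), Selenon (0.991) and Lamc1 (0.990).

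**Figure D3:**
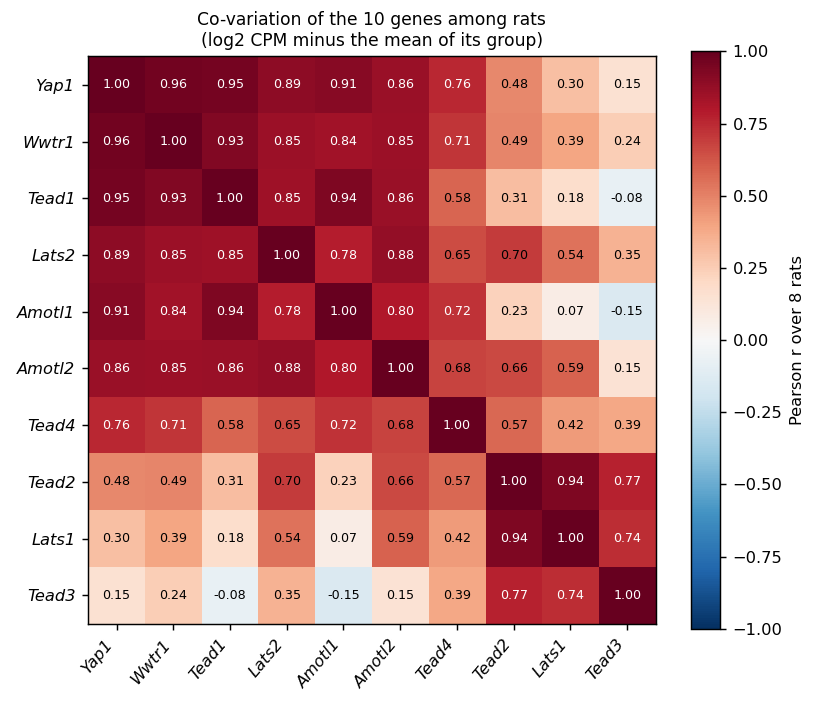
Pearson correlation (color scale, -1 to 1) between each pair of the 10 genes over the 8 rats, using log2 CPM minus the mean of each group. Yap1, Wwtr1, Tead1, Lats2, Amotl1 and Amotl2 are highly correlated with each other, as are Tead2, Lats1 and Tead3, with intermediate values between them for Tead4, Tead2, Lats2 and Amotl2.

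The other genes of the pathway were read from lists of its known parts. In the core kinase module, 1 of 17 tested genes was called, lower, against 9.25% of all tested genes called lower, and the median log2 fold change was -0.10. Taok1, which phosphorylates the upstream kinases, fell from 49.1 ± 3.11 to 33.7 ± 4.02 CPM (SD, n = 4 each, log2 fold change -0.54, edgeR FDR = 0.0201). Without Vehicle 1 its FDR was 0.0612. The most abundant genes of this list, Mob1a, Map4k4 and Mink1, had log2 fold changes of 0.08, -0.21 and -0.21, and none was called (edgeR FDR 0.579, 0.283 and 0.273). The defining components Stk3, Stk4 and Sav1, singled out after their values were seen, had log2 fold changes of 0.15, 0.02 and 0.09 and were not called either (edgeR FDR 0.399, 0.943 and 0.520).

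Among upstream and junction regulators, 7 of 17 tested genes were called, all 7 lower, against 9.25% of all tested genes called lower, and the median was -0.73. The atypical cadherin Fat4 measured 7.47, 8.84, 1.89 and 6.03 CPM in BAPN rats 1 to 4 and 31.6, 17.2, 20.9 and 50.1 CPM in vehicle rats 1 to 4. Those groups lay far apart, with a log2 fold change of -2.30 (edgeR FDR = 0.0187), and without Vehicle 1 the FDR was 0.0527. Dchs1, the ligand of Fat4, fell from 122 ± 13.4 to 79.2 ± 7.50 CPM (SD, n = 4 each, log2 fold change -0.62, edgeR FDR = 0.0146) and was called without each library in turn but not in females alone (edgeR FDR = 0.0895). Fat3 (-1.93), the angiomotin Amot (-1.32) and Frmd6 (-0.78) also fell, with edgeR FDR of 0.0366, 0.0357 and 0.0404. With 1 library left out, these 3 reached an FDR of up to 0.0939, 0.0920 and 0.105. Fat3 stayed called only without BAPN 2 or Vehicle 2, Amot without BAPN 4, Vehicle 2 or Vehicle 3, and Frmd6 without Vehicle 2. Without Vehicle 1 the list's count was 1, and in females alone it was 0. With sex as a covariate the count was 2, against 4.63% of all tested genes called lower in that fit. Fat3, Amot and Frmd6 were not called there. The abundant Fat1 and Tjp1 had log2 fold changes of -0.68 and -0.82 and were not called by edgeR (FDR 0.266 and 0.0663). DESeq2 called Tjp1 (FDR = 0.0206) but not Fat1 (FDR = 0.192).

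The STRIPAK complex carries protein phosphatase PP2A to the upstream kinases. Here 2 of 15 tested genes (13.3%) were called, in opposite directions, a share near the 16.8% of all tested genes, and the median was -0.01. Ppp2ca, a catalytic subunit of PP2A, measured 81.3, 85.7, 79.7 and 88.2 CPM in BAPN rats 1 to 4 and 39.9, 39.8, 44.2 and 46.7 CPM in vehicle rats 1 to 4. Every BAPN rat was far above every vehicle rat, and the spread within each group was small. Its log2 fold change was 0.97 (limma SE 0.10, edgeR FDR = 0.00232), called in all 8 fits that left out 1 library and in all 10 other settings. The closely related Ppp2cb, singled out after its values were seen, had a log2 fold change of 0.19 (edgeR FDR = 0.313), and how reads shared by such copies were counted was not given in the sources used here. Slmap, which docks the complex on the kinases, fell (log2 fold change -0.44, edgeR FDR = 0.0277), and stayed called only when BAPN 2 or Vehicle 2 was left out (highest FDR 0.0807). The abundant Ppp2r1a and Fgfr1op2 were not called (log2 fold change -0.09 and 0.25, edgeR FDR 0.536 and 0.160).

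Of the partners and turnover factors of YAP and TAZ, 1 of 12 tested was called, lower, near the 9.25% of all tested genes called lower, and the median was 0.08. Vgll4, which competes with YAP for TEAD factors, fell from 36.4 ± 5.28 to 25.8 ± 1.29 CPM (SD, n = 4 each, log2 fold change -0.50, edgeR FDR = 0.0293). It was not called without any 1 library other than Vehicle 2 (highest edgeR FDR 0.0738). The 14-3-3 genes Ywhab, Ywhae and Ywhaz, whose proteins hold phosphorylated YAP in the cytoplasm, had log2 fold changes of 0.13, 0.13 and 0.10 and were not called (edgeR FDR 0.459, 0.424 and 0.650).

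**Figure D4:**
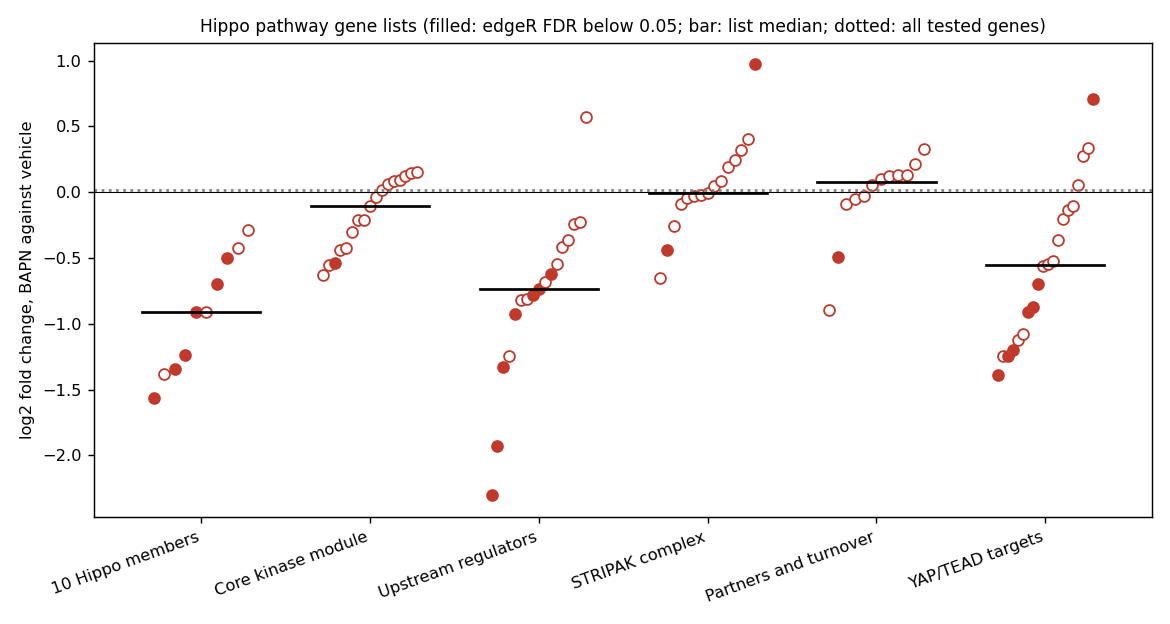
Log2 fold change, BAPN against vehicle (vertical axis), of each tested gene in the 10 members and 5 other lists of the pathway, sorted within a list; filled points passed an edgeR FDR of 0.05, bars are list medians and the dotted line is the median of all tested genes. The medians of the members (-0.91), upstream regulators (-0.73) and targets (-0.55) lie below those of the core kinases (-0.10), the STRIPAK complex (-0.01) and the partners (0.08).

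Known YAP and TEAD targets differed in direction and size. Of 20 tested, 7 were called, 6 lower and 1 higher, against 9.25% and 7.5% of all tested genes, and the median log2 fold change was -0.55. Lats2 and Amotl2, described above, are 2 of the 6. Arhgef17 measured 30.5, 29.6, 15.0 and 26.0 CPM in BAPN rats 1 to 4 and 64.9, 46.8, 55.3 and 98.0 CPM in vehicle rats 1 to 4, without overlap (log2 fold change -1.39, edgeR FDR = 0.0165). Its FDR was 0.0504 without Vehicle 1. Rbms3 (-1.24, edgeR FDR = 0.0261) and Crim1 (-1.20, edgeR FDR = 0.0364) also fell, with highest FDR of 0.0677 and 0.0940 when 1 library was left out. Rbms3 was not called without BAPN 4, Vehicle 1 or Vehicle 4, nor Crim1 without BAPN 1, BAPN 3, BAPN 4, Vehicle 1 or Vehicle 4, and without Vehicle 1 the list's count was 0 by edgeR. Gadd45b, a stress response gene, rose from 36.3 ± 8.15 to 59.2 ± 6.95 CPM (SD, n = 4 each, log2 fold change 0.71, edgeR FDR = 0.0264), with an FDR of up to 0.0763 without BAPN 2, BAPN 3, BAPN 4 or Vehicle 1.

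Ccn2, the most widely used YAP target, was not called. It measured 613, 983, 470 and 469 CPM in BAPN rats 1 to 4 and 391, 326, 611 and 1404 CPM in vehicle rats 1 to 4. All BAPN rats lay within the vehicle range, between Vehicle 2 and Vehicle 4, and the log2 fold change was -0.11 with a limma 95% interval of -0.97 to 1.10 (edgeR FDR = 0.883). Its sign was not stable, at 0.28 with sex as a covariate, 0.94 in females alone and -0.12 by DESeq2. Ccn1, singled out after its values were seen, had a log2 fold change of -1.07 (edgeR FDR = 0.0781, DESeq2 FDR = 0.0177) with overlapping groups. Myof and Ccdc80, the other abundant targets, had log2 fold changes of 0.06 and -1.12 and were not called by edgeR (FDR 0.836 and 0.0572). DESeq2 called Ccdc80 (FDR = 0.00666) but not Myof (FDR = 0.877).

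Promoter sequences, taken from 250 bases before to 50 after the start of a gene in the RefSeq annotation of GRCr8, were available for 6 of the 10 members (Yap1, Wwtr1, Tead3, Lats1, Amotl1 and Amotl2). The TEAD motif GGAATG, searched on both strands (so also as CATTCC), stood in the promoters of 2 of these 6, Yap1 and Amotl2. For comparison, 14.2% of all 33469 promoters and 15.0% of the 27457 genes with a promoter held it. In the target list 5 of 15 genes with a promoter held it, Amotl2 among them. The promoters of Yap1 and Amotl2, which fell, and of Ccn2, which was not called, are shown 5′ to 3′ on the strand of the gene, with matches in capitals. Yap1 lies at chr8:13451388-13451687 (minus strand), with a match 116 bases before the start. Amotl2 lies at chr8:112182376-112182675 (plus strand), with a match 76 bases before the start. Ccn2 lies at chr1:22624565-22624864 (minus strand), with matches 166, 101 and 92 bases before the start.
Yap1: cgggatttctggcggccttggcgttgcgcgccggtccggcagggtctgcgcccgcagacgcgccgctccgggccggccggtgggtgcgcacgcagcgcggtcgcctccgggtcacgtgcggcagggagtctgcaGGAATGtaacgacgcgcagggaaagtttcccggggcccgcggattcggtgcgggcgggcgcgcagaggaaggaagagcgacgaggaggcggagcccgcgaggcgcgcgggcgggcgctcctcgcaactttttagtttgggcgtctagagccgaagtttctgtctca
Amotl2: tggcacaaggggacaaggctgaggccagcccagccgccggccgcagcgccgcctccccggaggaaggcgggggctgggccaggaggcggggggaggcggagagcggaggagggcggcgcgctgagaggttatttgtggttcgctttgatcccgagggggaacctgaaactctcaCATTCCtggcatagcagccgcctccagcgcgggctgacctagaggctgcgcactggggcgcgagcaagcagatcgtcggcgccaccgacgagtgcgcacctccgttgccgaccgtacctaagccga
Ccn2: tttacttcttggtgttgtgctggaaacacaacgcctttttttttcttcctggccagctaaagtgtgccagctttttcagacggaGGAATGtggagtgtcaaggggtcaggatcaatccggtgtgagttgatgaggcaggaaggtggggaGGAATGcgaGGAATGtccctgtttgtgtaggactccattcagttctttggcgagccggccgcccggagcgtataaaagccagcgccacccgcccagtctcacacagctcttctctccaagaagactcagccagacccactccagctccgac
A match is a run of letters and not a measured TEAD site.

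Markers of some cell types that a vein can hold were also called, and their counts stand against the 9.25% of all tested genes called lower and the 7.5% called higher. Summed endothelial markers ranged from 451 to 590 CPM with BAPN and from 709 to 1475 CPM with vehicle, without overlap, and 2 of 6 (Tek and Vwf) were called lower. Summed smooth muscle markers ranged from 1448 to 4037 CPM with BAPN and from 3108 to 5746 CPM with vehicle, and 5 of 7 (Myh11, Cnn1, Smtn, Lmod1 and Synpo2) were called lower. Fibroblast markers overlapped (13462 to 20274 against 15154 to 55205 CPM, 0 of 6 called by edgeR). Leukocyte markers summed to 1760 to 2717 CPM with BAPN and 776 to 1977 CPM with vehicle, and 1 of 4 tested was called higher. T cell markers summed to 37.1 to 90.4 against 16.7 to 37.9 CPM, with 2 of 5 called higher, and macrophage markers to 2381 to 2900 against 1455 to 2699 CPM, with 0 of 6 called. B and plasma cell markers summed to 6.66 to 219 against 12.0 to 37.0 CPM, with 2 of 3 tested called higher and BAPN 4 at 6.66 CPM where the other BAPN rats were at 155 to 219 CPM, Cd79a being at 0 in at least 1 library. Adipocyte markers summed to 20.9 to 46.2 against 23.4 to 191 CPM, with 1 of 3 tested called lower and Lep at 0 in at least 1 library. Skeletal muscle (16.1 to 30.0 against 17.1 to 69.7 CPM) and Schwann cell markers (23.5 to 228 against 48.4 to 110 CPM) had 0 of 2 and 0 of 5 tested genes called by edgeR, Ckm and Mylpf being at 0 in at least 1 library. Keratinocyte markers (1.66 to 10.9 against 0.64 to 5.26 CPM) were below the filter, with Krt1, Krt5 and Krt14 at 0 in at least 1 library. The part of these cell types in the lower levels of Yap1, Wwtr1, Lats1, Lats2, Amotl1 and Amotl2 was not tested. The mitochondrial share of counts was 4.62% to 7.80% with BAPN and 4.46% to 5.41% with vehicle, highest in BAPN 3, which was also lowest for 8 of the 10 genes.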

How the data were processed

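RNA from the outflow veins of 8 rats was sequenced. The authors deposited raw gene-level counts for each library. The submitters' processing notes name bcl2fastq 2.17, Trim Galore and STAR, and the libraries came from a stranded, ribosomal RNA-depleted kit, but the read counter, its strand setting, annotation and genome build were not given in the sources used here, so reads of overlapping, antisense or near-identical genes may have been assigned to either gene.

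Groups came from the sample labels. Genes with a mean of at least 100 counts (scaled by DESeq2 size factors) in the 8 libraries were tested with edgeR 4.0.16 (TMM, quasi-likelihood, no covariate) in R 4.3.3. Standard errors and 95% intervals came from limma 3.58.1 (voom), and DESeq2 1.42.0 was an alternative. CPM used TMM library sizes, and correlations and ratios used log2 CPM with a prior count of 2. Exact permutation tests ran over all 70 arrangements of the 8 rats and were two-sided. P-values measure the spread between these rats. The steps were tested on simulated data.

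The members and lists were chosen with earlier results of these data known. The lists cover the core kinases, upstream regulators, STRIPAK, partners, targets, 11 sets of cell markers and, added after the members were seen, other mechanosensing genes. Named genes are the members and, from each other list, the 3 with the highest mean CPM and up to 6 called with the smallest FDR, plus the 5 genes most like Yap1. Genes named outside this rule are marked, and 1 gene that the rule names is not reported here. Exon lengths were not used, so levels are not compared between genes. No counts were found under the symbols Dchs2, Wtip, Vgll1, Ywhas, Foxf2, Mrtfb, Syne1, Syne2 and Pecam1, and Wwc1, Fat2, Vgll2 and Ankrd1 were below the filter. Alternatives were DESeq2, other scaling and filters, a sex term, a fit of the females, a block for replicate number, thinning to equal totals, and omission of single libraries.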

Additional observations from a re-analysis of the deposited data

Results flagged for a closer look

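Of the 102 groups of 4 libraries examined (the members, the other pathway and mechanosensing genes chosen for the text and the 5 genes most like Yap1, in each treatment), 1 was flagged by Dixon's test, and chance alone flags about 1 in 20 groups. Myof, a YAP target involved in membrane repair, measured 635 CPM in BAPN 4, the BAPN male, against 419 to 440 CPM in the other BAPN rats.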

How the results depend on the processing

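Of the 10 members, 9 kept a log2 fold change below 0 in every setting run, and Tead4 was 0.086 in females alone. Of all tested genes, edgeR called 1957, and the count was 3202 by DESeq2, 930 with sex as a covariate, 89 in females alone and 397 (without Vehicle 1) to 2215 (without Vehicle 2) when 1 library was left out. Of the 10 members, 6 were called, 1 with sex as a covariate, 0 in females alone and 0 to 7 when 1 library was left out. The core kinase count of 1 was 3 by DESeq2, 2 with total scaling, 2 with thinned libraries, 0 in females alone and 0 to 3 when 1 library was left out. The upstream count of 7 was 4 with no filter on low counts, 2 with sex as a covariate, 0 in females alone and 1 to 9 when 1 library was left out. The STRIPAK count of 2 was 1 with no filter, 1 with sex as a covariate, 1 in females alone and 1 to 2 when 1 library was left out. The partner count of 1 was 3 by DESeq2, 0 with no filter, 0 with sex as a covariate, 0 in females alone and 0 to 1 when 1 library was left out. The target count of 7 was 11 by DESeq2, 2 with sex as a covariate, 0 in females alone and 0 to 9 when 1 library was left out. For all these counts the lowest value of the omissions was reached without Vehicle 1 and the highest without Vehicle 2. Under the replicate block, the counts were 556 for all genes, 0 for the members (8 at an unadjusted edgeR p below 0.05, against 30.7% of all tested genes), 3 upstream, 1 in STRIPAK, 0 among partners and 1 among targets, and Mrtfa was not called (edgeR FDR = 0.0573). The same-numbered rats did not deviate together (r = 0.09, -0.27, 0.27 and -0.14), and not every rat correlated best with its own number. This check gave no sign of a pairing by number but cannot exclude one, as it rests on few correlations. Signs turned for some genes that were not called. Ccn2 was 0.28 with sex as a covariate, 0.94 in females alone, 0.078 with the replicate block, 0.011 without BAPN 3 and -0.41 to 0.52 over all omissions, the highest without Vehicle 4. Myof was -0.013 with total scaling, -0.23 in females alone and -0.12 (without BAPN 4) to 0.12 over the omissions. Ywhaz was -0.091 in females alone and -0.0019 (without BAPN 4) to 0.15 over the omissions, and Lmna was 0.13 in females alone and -0.15 to 0.11 over the omissions, above 0 without BAPN 4 or Vehicle 4. Stk4 was -0.050 with total scaling, -0.0065 with sex as a covariate, -0.084 in females alone and -0.092 (without BAPN 3) to 0.079 over the omissions, and below 0 without Vehicle 4 as well. Females alone and each omission leave fewer rats; otherwise the cause was not tested. Tead1 and Tead2 had the fewest reads of the 10 members, with as few as 76 and 53 in a library.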

Other observations

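Other genes that cells use to sense mechanical load were read from a list added after the values of the 10 members were known. Of 17 tested, 1 was called by edgeR and 6 by DESeq2, against 16.8% and 27.4% of all tested genes. The log2 fold change was below 0 in 16, against 48.4% of all tested genes, and the median was -0.34 against 0.02 over all tested genes. Mrtfa, a cofactor of serum response factor that responds to actin, measured 51.6, 42.8, 39.9 and 40.8 CPM in BAPN rats 1 to 4 and 61.1, 65.4, 63.0 and 73.6 CPM in vehicle rats 1 to 4. The groups did not overlap, with a log2 fold change of -0.59 (edgeR FDR = 0.0163), and Mrtfa was called without each library in turn but not in females alone (edgeR FDR = 0.128). Rhoa, the small GTPase that drives actin contraction, measured 841, 892, 962 and 1079 CPM in BAPN rats 1 to 4 and 721, 805, 754 and 722 CPM in vehicle rats 1 to 4. All BAPN rats were above all vehicle rats, but edgeR did not call it (log2 fold change 0.33, FDR = 0.121), whereas DESeq2 did (FDR = 0.0215). Tln1, which links integrins to actin, and Lmna, of the nuclear lamina, had log2 fold changes of -0.17 and -0.04 and were not called (edgeR FDR 0.498 and 0.898).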
